A study of Mus musculus with 24 samples.

Results

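Heavy polysomes and whole lysates of the wild-type dorsal striatum (DS) were compared gene by gene to describe which classes of mRNA were rich or poor in heavy polysomes in the normal tissue. The comparison used 6 of the 24 libraries of the series, taken by their titles, 3 from heavy polysomal fractions and 3 from whole lysates, and the libraries were paired by replicate number. The mice were wild-type littermates of rpS6 knockin animals on a mixed C57Bl/6/Sv129/ICR background, males and females were used, no treatment is given in the labels, and the age of these mice is not given in the sources used here. Each replicate was a pool of the DS of several mice, so that p-values describe the spread between pools of one mixed background. Heavy polysomal RNA was defined in the labels as RNA carried by more than 4 ribosomes on a sucrose gradient, whereas the whole lysate (total) was an aliquot of the lysate taken before the gradient. The labels call it the initial lysate, while the study's methods clear the lysate by centrifugation and describe the input as cytosolic RNA, so that how much nuclear RNA it held is not known here. The other libraries used here, 6 from the wild-type nucleus accumbens (Acb) and 6 from the DS of knockin mice whose rpS6 lacks its phosphorylated serines, served only to ask whether the same classes were found elsewhere.

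An mRNA under translation usually carries several ribosomes at once, and a sucrose gradient sorts mRNAs by how many they carry. The number depends on how often ribosomes start, on how fast they move and on the room that the coding sequence offers. Some mRNAs are known for control at this step, such as those with a terminal oligopyrimidine (TOP) start, which encode ribosomal proteins and elongation factors, those with upstream open reading frames, which serve in stress responses, and the ferritin mRNAs, which are held back by iron regulatory proteins. In the striatum most neurons are medium spiny neurons (MSNs), which use GABA, receive dopamine and glutamate, and release the peptides made from *Penk* and *Tac1*.

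The libraries held 11109431, 14240173 and 23021073 reads assigned to genes in heavy polysomes of replicates 1 to 3, and 20259509, 15763557 and 13762168 in whole lysates. The noncoding RNA *Bc1* accounted for 19.9 to 24.8% of whole-lysate reads and for 2.4 to 3.85% in heavy polysomes. In a principal component analysis of these 6 libraries, heavy polysomes of replicate 1 stood apart from those of the other replicates (-57.4 against -20.3 and -27.5 on the first component). Markers of MSNs were present in every library, and 2202, 2008 and 1850 CPM in heavy polysomes and 1216, 1052 and 1233 CPM in lysates were measured for *Ppp1r1b*, which encodes DARPP-32 (CPM, read counts scaled to library size).

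Genes whose reads over the 6 libraries summed to at least 15 were kept, and these 15614 genes were tested with the quasi-likelihood test of edgeR with the lysate as a block, Benjamini-Hochberg adjustment and a cutoff of 0.05. Heavy over total fold changes are given on the log2 scale and compare the shares of both RNA pools: a value of 0 means that an mRNA took the same share of both after scaling, not that a given part of its copies was on polysomes. In heavy polysomes 2012 genes were higher (12.9% of those tested) and 1897 were lower (12.1%), 3909 in all (25%). Of these, 582 were at least 2-fold higher (3.73%) and 661 at least 2-fold lower (4.23%). The libraries of both fractions did not overlap for 5860 genes (37.5% of all tested), and 3670 of the 3909 called genes were among them. Without replicate 1 the count was 2139 genes, and without replicate 3 it was 2451, with one pair fewer in each case.

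The class that a gene fell into followed the length of its protein. In genes with a coding transcript in GENCODE (14596 of those tested), the median log2 fold change was 0.64 for proteins of over 100 and up to 200 residues, 0.37 up to 400, -0.09 up to 800, -0.49 up to 1600 and -0.82 for proteins of over 1600 residues, whereas the median of all genes was 0.00. Of the 1548 genes in the class of up to 200 residues, 670 were higher in heavy polysomes and 38 lower. Among the 666 genes with proteins of over 1600 residues the counts were 6 higher and 351 lower. The shortest proteins left this order, with a median of 0.04 for the 289 genes of at most 100 residues, of which 59 were higher and 45 lower. The median of this class was -0.20 without replicate 3 and 0.36 without replicate 2, while those of the other classes kept their sign without each replicate in turn.

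Across genes, which are not independent replicates, Spearman's rho between protein length and fold change was -0.50 (14596 genes), and -0.61 in the 11293 genes with at least 50 reads per library on average. In the single pairs rho was -0.44, -0.33 and -0.46. Other parts of the transcript followed the fold change less closely, with rho of -0.14 for the length of the 3' untranslated region and -0.05 for that of the 5' untranslated region. The number of ATG triplets upstream of the coding sequence gave a rho of -0.02. Genes with no upstream ATG had a median of 0.01 (6868 genes), and those with more than 3 had a median of 0.02 (1933 genes). Within proteins of over 100 and up to 200 residues, the median was 0.73 where the 3' untranslated region was at most 500 bases and 0.53 where it was over 1500 bases. Within proteins of over 1600 residues these medians were -0.81 and -0.88, so that the difference between length classes was present at each length of the 3' region.

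**Figure D1:**
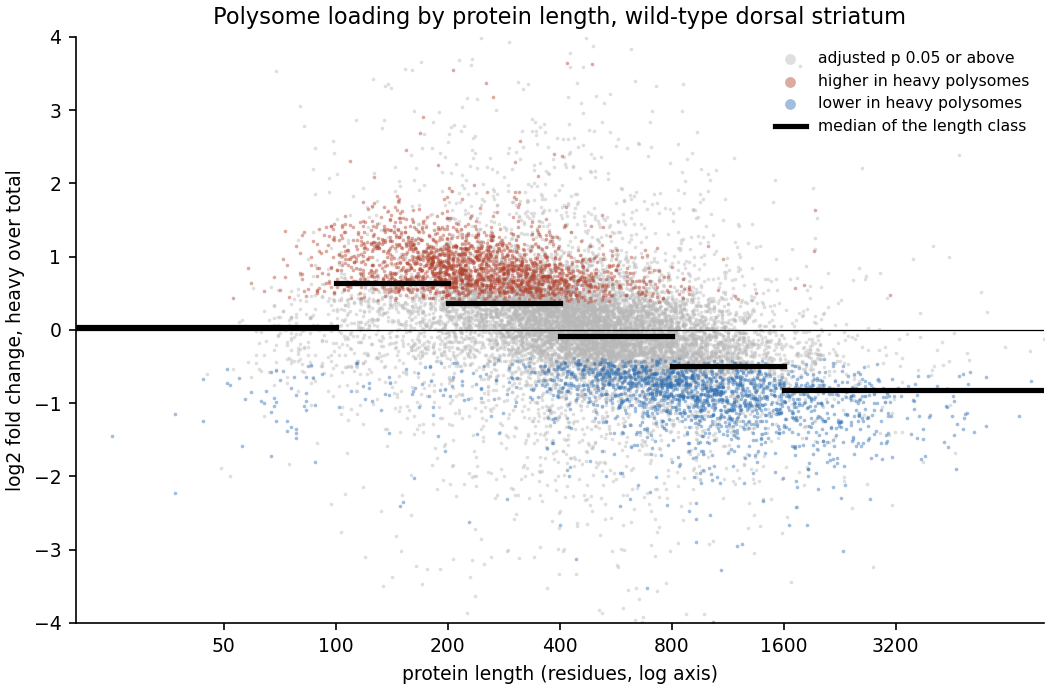
Log2 fold change of heavy polysomes over whole lysate (vertical axis) against protein length in residues (horizontal log axis), one point per gene, with called genes in red (higher) and blue (lower) and black lines for the median of each length class. The medians step down from 0.64 between 100 and 200 residues to -0.82 above 1600, and 267 genes beyond 4 in either direction are not drawn.

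Coding sequences of mRNAs for short proteins are shown to compare their room for ribosomes. Above 100 residues the class medians fell as the coding sequence, and so its room, became longer. Why they fell was not tested. They run 5' to 3' from the start codon to the stop codon, both in capitals, and were taken from GENCODE M21 (GRCm38), where the coding parts lie on the minus strand at chr10:128548387-128548960 for *Rpl41*, chr6:72957618-72958012 for *Tmsb10*, chr9:37545953-37552551 for *Nrgn*, chr6:11900535-11907365 for *Ndufa4* and chr7:15919863-15922280 for *Sepw1*. A further TGA in capitals in *Sepw1*, codon 13, is the in-frame stop triplet that is read as selenocysteine.
Rpl41: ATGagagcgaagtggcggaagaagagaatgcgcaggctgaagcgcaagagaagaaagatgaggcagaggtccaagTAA
Tmsb10: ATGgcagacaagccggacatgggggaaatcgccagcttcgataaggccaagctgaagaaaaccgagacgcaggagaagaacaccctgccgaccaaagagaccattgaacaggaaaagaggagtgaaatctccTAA
Nrgn: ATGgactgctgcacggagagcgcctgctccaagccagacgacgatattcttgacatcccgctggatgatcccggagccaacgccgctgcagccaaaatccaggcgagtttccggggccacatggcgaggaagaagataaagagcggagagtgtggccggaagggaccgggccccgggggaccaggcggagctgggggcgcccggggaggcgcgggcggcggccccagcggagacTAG
Ndufa4: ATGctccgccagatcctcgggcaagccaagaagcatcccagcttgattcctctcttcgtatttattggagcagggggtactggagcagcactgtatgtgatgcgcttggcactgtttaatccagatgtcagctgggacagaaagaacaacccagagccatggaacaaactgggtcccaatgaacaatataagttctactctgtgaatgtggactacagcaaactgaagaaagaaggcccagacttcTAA
Sepw1: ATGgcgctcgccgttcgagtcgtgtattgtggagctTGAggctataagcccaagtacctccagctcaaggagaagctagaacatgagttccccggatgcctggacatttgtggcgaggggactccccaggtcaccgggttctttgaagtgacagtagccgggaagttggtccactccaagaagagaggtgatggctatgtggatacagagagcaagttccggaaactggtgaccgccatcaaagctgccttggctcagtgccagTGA

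The shortest of these, 25 codons before the stop, encodes the ribosomal protein Rpl41. Its mRNA was at 161, 150 and 211 CPM in heavy polysomes and 531, 501 and 390 CPM in lysates (log2 fold change -1.45, SE 0.16, adjusted p = 1.19e-07, edgeR). All 3 lysates lay above all 3 heavy libraries. *Tmsb10*, which encodes the actin-binding thymosin beta 10 in 44 codons, was at 164, 98.7 and 152 CPM in heavy polysomes and 345, 303 and 321 CPM in lysates (log2 fold change -1.25, SE 0.15, adjusted p = 4.12e-07, edgeR), again without overlap. The opposite was found for *Nrgn*, whose 78 codons encode neurogranin, a calmodulin-binding protein of dendritic spines. It was measured at 5888, 3382 and 4850 CPM in heavy polysomes and 1873, 2248 and 2165 CPM in lysates (log2 fold change 1.14, SE 0.16, adjusted p = 4.53e-06, edgeR). *Ndufa4*, with 82 codons for a subunit of the respiratory chain, was also higher, with 910, 502 and 980 CPM in heavy polysomes and 369, 304 and 246 CPM in lysates (log2 fold change 1.34, SE 0.17, adjusted p = 7.08e-07, edgeR). *Sepw1*, of 88 codons, encodes a small selenoprotein and was at 272, 251 and 328 CPM in heavy polysomes and 1018, 1025 and 916 CPM in lysates (log2 fold change -1.80, SE 0.15, adjusted p = 8.40e-10, edgeR). Every heavy library of *Nrgn* and *Ndufa4* lay above every lysate, and for *Sepw1* the order was the reverse.

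With finer classes, chosen after seeing the data, the median log2 fold change was -1.25 for the 7 genes of at most 50 residues, -0.17 for the 90 genes of up to 75 residues and 0.19 for the 192 genes of up to 100 residues. It was 0.53 for the 312 genes of up to 125 residues and 0.66 for both the 354 genes of up to 150 and the 882 genes of up to 200 residues. The sign turned between pairs for the class of up to 75 residues (-0.39, -0.79 and 0.35), for that of up to 100 (0.32, -0.28 and 0.71) and for that of up to 125 (0.64, -0.01 and 0.87), with the second pair the lowest in each. Of the 7 shortest, 0 were higher and 5 lower: *Rpl41*, *Tmsb10*, *Tmsb4x*, *Ost4* and *Gm20594*, where *Ost4* and *Gm20594* were named after their values were seen. Of the class of up to 75 residues 11 genes were higher and 22 lower, and of that of up to 150 residues 155 were higher and 7 lower.

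**Figure D2:**
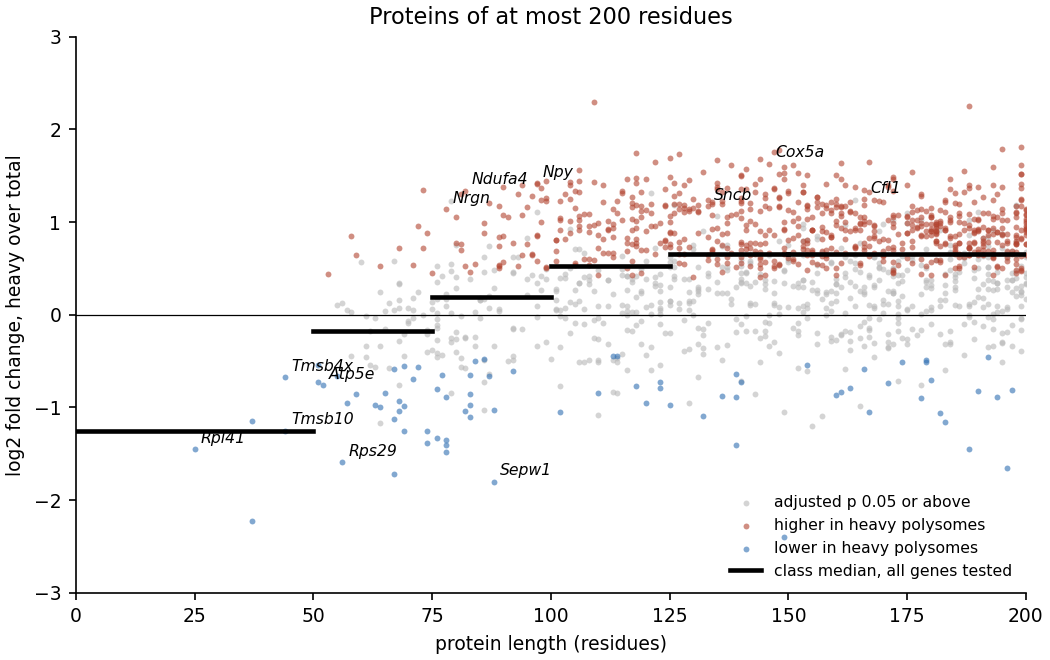
Log2 fold change of heavy polysomes over whole lysate (vertical axis) against protein length (horizontal axis) for proteins of at most 200 residues and at least 50 reads per library on average, with called genes in red (higher) and blue (lower). Black lines give the medians of the finer classes over all genes tested, which run from -1.25 at the left to 0.66 at the right.

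The classes of mRNA richest in heavy polysomes encoded small subunits of mitochondrial and protein-handling complexes. Over all genes tested 12.9% were higher and 12.1% lower, and the counts of every list below are to be read beside these shares. Mitochondrial ribosomal proteins, which build the ribosomes inside mitochondria, had a median of 0.81, with 57 of 77 genes higher and 0 lower. *Mrps33* was at 312, 183 and 254 CPM in heavy polysomes and 104, 78.0 and 70.6 CPM in lysates (log2 fold change 1.56, SE 0.16, adjusted p = 2.81e-08, edgeR), and *Mrpl41* (1.38) and *Mrps25* (1.38) followed. Subunits of the ATP synthase, which makes ATP from the proton gradient, had a median of 1.02, with 11 of 18 genes higher and 2 lower. *Atp5g3*, a subunit of its membrane ring, was at 940, 769 and 789 CPM in heavy polysomes and 292, 318 and 236 CPM in lysates (log2 fold change 1.57, SE 0.15, adjusted p = 7.34e-09, edgeR). *Atp5h* and *Atp5o*, parts of its stalk, had log2 fold changes of 1.47 and 1.45. In each of these genes all heavy libraries lay above all lysates. The 52-residue subunit encoded by *Atp5e* went the other way (log2 fold change -0.76, SE 0.19, adjusted p = 0.00356, edgeR), with 86.4, 60.9 and 122 CPM in heavy polysomes and 174, 158 and 115 CPM in lysates, which overlapped.

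Complex I, the entry point for NADH, had a median of 0.71, with 25 of 35 tested subunits higher and 2 lower. *Ndufc2* was at 223, 158 and 229 CPM in heavy polysomes and 76.8, 81.3 and 61.1 CPM in lysates (log2 fold change 1.47, SE 0.17, adjusted p = 1.91e-07, edgeR), and *Ndufb3* and *Ndufs4* both had a log2 fold change of 1.40. The largest subunit of the complex, encoded by *Ndufs1* in 727 residues, was lower at 67.5, 75.9 and 69.4 CPM in heavy polysomes and 137, 139 and 110 CPM in lysates (log2 fold change -0.85, SE 0.16, adjusted p = 0.000157, edgeR). In complexes III and IV 13 of 22 genes were higher and 1 lower, with a median of 0.52. *Cox5a*, a subunit of cytochrome oxidase, was at 302, 193 and 250 CPM in heavy polysomes and 84.4, 97.7 and 59.1 CPM in lysates (log2 fold change 1.63, SE 0.18, adjusted p = 6.62e-08, edgeR), whereas *Cox8a*, of 69 residues, was at 76.3, 63.4 and 104 CPM in heavy polysomes and 119, 214 and 153 CPM in lysates (log2 fold change -0.98, SE 0.19, adjusted p = 0.000161, edgeR). The median of these subunits moved between pairs (0.65, -0.02 and 1.08), as did that of complex I (1.01, 0.29 and 1.10), and the second pair was the lowest for both. Protein import into mitochondria had 10 of 20 genes higher and 4 lower, among them *Timm10* (1.38) and *Timm8b* (-0.97), which both encode small carriers of the intermembrane space.

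Enzymes of energy metabolism outside the respiratory chain were split. Of 15 glycolytic enzymes 2 were higher and 8 lower, with a median of -0.38. *Hk1*, which starts glycolysis in neurons, was at 96.4, 119 and 102 CPM in heavy polysomes and 249, 253 and 242 CPM in lysates (log2 fold change -1.23, SE 0.15, adjusted p = 4.07e-07, edgeR), and *Pkm*, which ends it, was at 625, 659 and 606 CPM in heavy polysomes and 1276, 1239 and 1202 CPM in lysates (log2 fold change -0.98, SE 0.14, adjusted p = 3.90e-06, edgeR). *Pfkm* was lower (-1.12) and *Tpi1* higher (0.65), while *Gapdh* overlapped between fractions (log2 fold change -0.22, SE 0.15, adjusted p = 0.320, edgeR). In the tricarboxylic acid cycle 4 of 16 genes were higher and 6 lower (median 0.12). The small subunits of succinate dehydrogenase were the higher ones that stood out (*Sdhc* 1.23, *Sdhb* 1.18 and *Sdhd* 1.13).

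Proteasome subunits, which form the main protease for ubiquitin-tagged proteins, had a median of 0.63, with 20 of 38 genes higher and 1 lower. *Psmb6*, a catalytic subunit, was at 364, 274 and 265 CPM in heavy polysomes and 117, 119 and 110 CPM in lysates (log2 fold change 1.37, SE 0.15, adjusted p = 1.10e-07, edgeR), without overlap, and *Psmb5* and *Psmd8* both had a log2 fold change of 1.28. *Psmd2*, one of the largest subunits, was the lower one (-0.62). Prefoldin, a chaperone that hands actin and tubulin to the CCT chaperonin, had 5 of 6 subunits higher and 0 lower (median 0.84), among them *H2-Ke2* (1.73). The longer CCT subunits had 0 of 8 higher and 4 lower (median -0.40), for example *Cct5* (-0.60) and *Tcp1* (-0.57). Chaperones of the endoplasmic reticulum had 2 of 14 higher (14.3%) and 1 lower (7.14%), near the shares over all genes tested (median -0.02). Sm and LSm proteins, the ring-forming core of spliceosomal particles, had 6 of 15 higher and 0 lower, led by *Snrpd3* and *Snrpd2* (both 1.42). Their median was 0.45, but -0.14 in the second pair. Rab GTPases, which direct vesicle traffic, had 30 of 53 genes higher and 2 lower (median 0.61). *Rab2a*, of the early secretory pathway, was at 722, 507 and 550 CPM in heavy polysomes and 320, 278 and 294 CPM in lysates (log2 fold change 0.98, SE 0.14, adjusted p = 5.27e-06, edgeR), and *Rab28* was one of the lower members (-0.96).

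**Figure D3:**
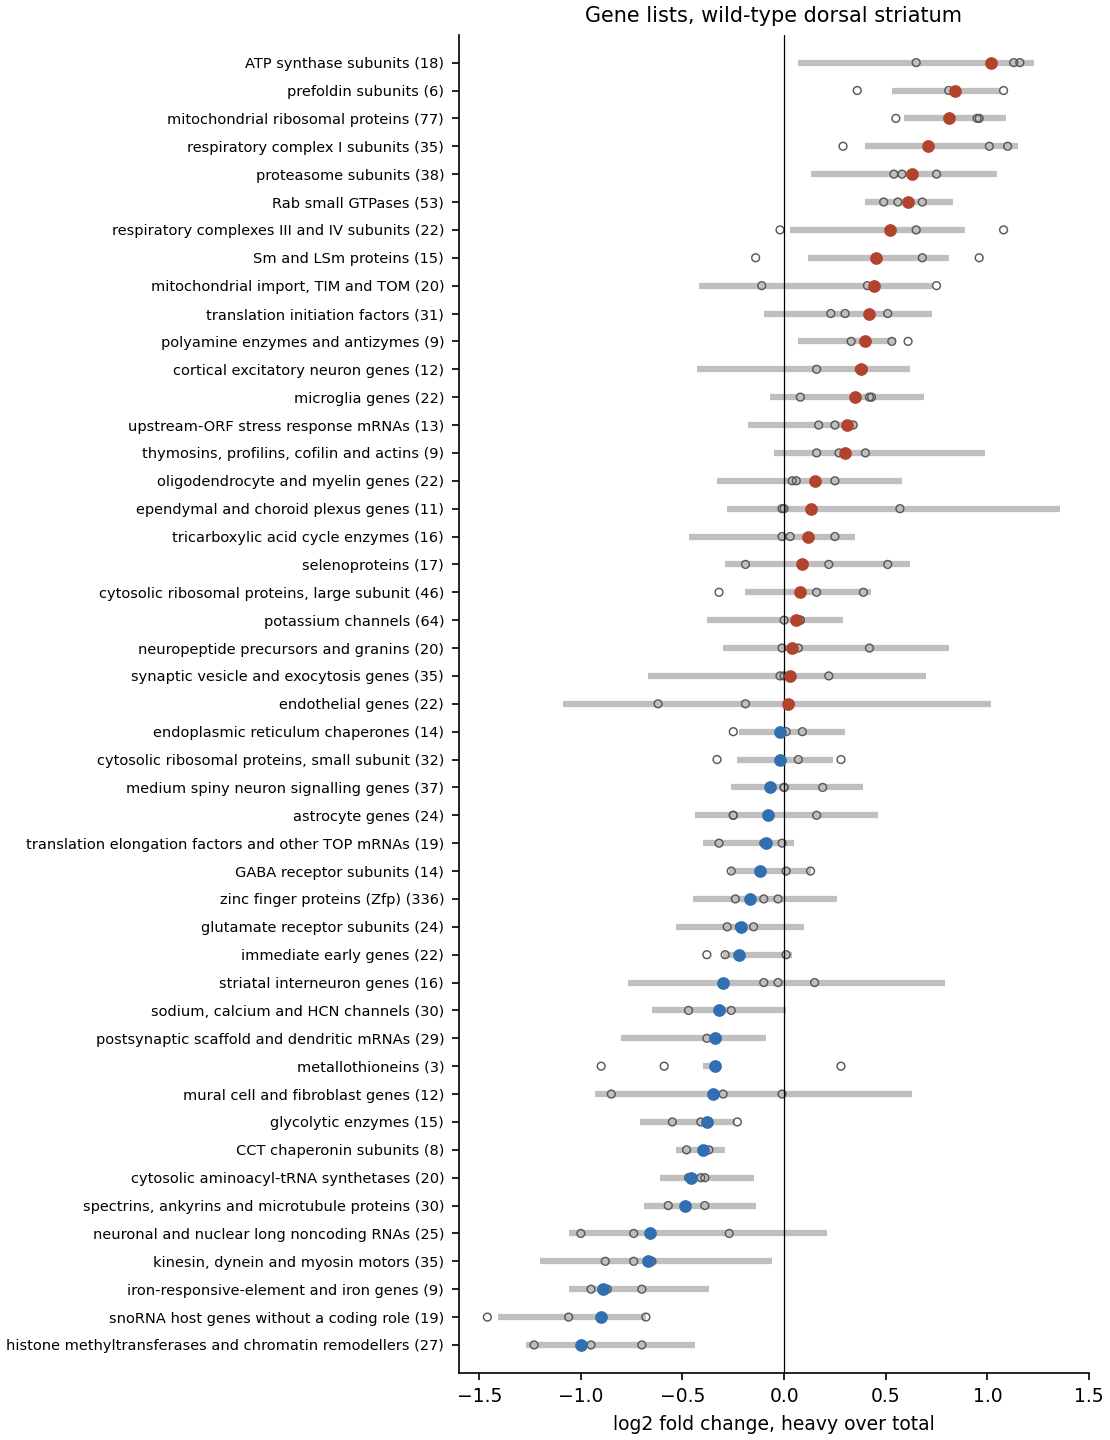
Median log2 fold change of heavy polysomes over whole lysate for each gene list, with the number of genes tested in parentheses (filled points, red above 0 and blue below), the interquartile range of the genes (grey bars) and the medians of the 3 single pairs (open circles). Subunits of the ATP synthase stand at the top with 1.02 and chromatin regulators at the bottom with -1.0.

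The translation machinery was not of one kind. Cytosolic ribosomal proteins, which are encoded by TOP mRNAs, were close to the median of all genes: 12 of 46 genes of the large subunit were higher and 5 lower (median 0.08), and 2 of 32 of the small subunit were higher and 5 lower (median -0.02). Reads of these genes can be shared with near-identical processed copies, and the counts keep only what the counting assigned to the gene. Their pair medians were 0.16, -0.32 and 0.39 for the large subunit and 0.07, -0.33 and 0.28 for the small subunit, so the sign differed between replicates. *Rps6*, the gene that is mutated in the knockin, was at 349, 305 and 312 CPM in heavy polysomes and 333, 322 and 259 CPM in lysates (log2 fold change 0.09, SE 0.14, adjusted p = 0.723, edgeR), and the libraries overlapped. *Rpl18* was at 232, 196 and 239 CPM in heavy polysomes and 118, 123 and 105 CPM in lysates (log2 fold change 0.94, SE 0.16, adjusted p = 2.59e-05, edgeR), and *Rpl27* (0.87), *Rpl10a* (0.79) and *Fau* (0.64) were also higher. The lower ones with the largest changes were short: *Rps29*, of 56 residues, was at 193, 164 and 231 CPM in heavy polysomes and 680, 603 and 486 CPM in lysates (log2 fold change -1.59, SE 0.16, adjusted p = 2.07e-08, edgeR), and *Rps28* (-1.25, 69 residues) and *Rps21* (-1.10, 83 residues) followed *Rpl41* and *Rps29* in size.

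Elongation factors and other TOP mRNAs gave 3 higher and 5 lower of 19. *Eef1a1*, which brings aminoacyl-tRNA to the ribosome, was at 1792, 1834 and 1792 CPM in heavy polysomes and 3217, 3113 and 2831 CPM in lysates (log2 fold change -0.76, SE 0.14, adjusted p = 0.000134, edgeR). *Eef2*, the translocase, was at 483, 543 and 459 CPM in heavy polysomes and 924, 957 and 955 CPM in lysates (log2 fold change -0.94, SE 0.14, adjusted p = 7.74e-06, edgeR), and the poly-A binding protein *Pabpc1* was at 88.6, 79.3 and 81.6 CPM in heavy polysomes and 203, 148 and 176 CPM in lysates (log2 fold change -1.07, SE 0.16, adjusted p = 5.46e-06, edgeR). For all 3 of them the lysates lay above the heavy libraries without overlap. *Tpt1* (log2 fold change 0.46, SE 0.15, adjusted p = 0.0209, edgeR) and *Btf3* (log2 fold change 1.25, SE 0.15, adjusted p = 2.69e-07, edgeR) of the same list were higher. Initiation factors leaned upwards, with 14 of 31 higher, 4 lower and a median of 0.42. The cap-binding protein *Eif4e* was at 346, 257 and 308 CPM in heavy polysomes and 174, 146 and 133 CPM in lysates (log2 fold change 1.01, SE 0.15, adjusted p = 6.66e-06, edgeR), whereas its large partner *Eif4g1*, of 1600 residues, was at 46.1, 54.2 and 53.3 CPM in heavy polysomes and 132, 113 and 136 CPM in lysates (log2 fold change -1.30, SE 0.17, adjusted p = 7.88e-07, edgeR). Cytosolic aminoacyl-tRNA synthetases, which charge tRNAs, were lower for 9 of 20 genes and higher for 0 (median -0.46), for example *Iars* (-1.02), *Aars* (-1.02) and *Tars* (-0.94).

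A TOP start is a C at the first base of the mRNA followed by pyrimidines, and the annotated starts of translation genes are shown to see which of them carry it in the annotation. Each line gives 15 bases before and 15 bases from the RefSeq start (GRCm38.p6) on the strand of the gene, with the unbroken run of C and T from the start in capitals. Where a gene had more than 1 annotated start, as *Rps21* did with 2, a start with the motif was chosen. The windows lie at chr4:86857353-86857382 (minus strand) for *Rps6*, chr2:180257364-180257393 (plus) for *Rps21*, chr19:6057932-6057961 (plus) for *Fau*, chr9:78481710-78481739 (minus) for *Eef1a1* and chr10:81176616-81176645 (plus) for *Eef2*.
Rps6: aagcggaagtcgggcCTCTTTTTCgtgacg
Rps21: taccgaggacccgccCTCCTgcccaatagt
Fau: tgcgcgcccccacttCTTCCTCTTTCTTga
Eef1a1: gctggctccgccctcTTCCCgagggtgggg
Eef2: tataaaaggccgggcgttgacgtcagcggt

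By the rule of a C at the start and at least 4 further C or T, *Rps6*, *Rps21* and *Fau* carried the motif and had log2 fold changes of 0.09, -1.10 and 0.64. At their annotated starts *Eef1a1* began with T and *Eef2* with G, and so neither met the rule, although both are classed as TOP mRNAs. Of the 57 ribosomal protein genes with an annotated start on record, 14 met the rule at any of their starts (24.6%), against 375 of 12285 tested genes (3.05%). Counted by single starts and not by genes, 2.51% of all 32851 met it, read on the strand of the gene. The 14 genes had a median of 0.12 and the other ribosomal protein genes one of -0.04. Over all genes tested the medians with and without the motif were both 0.01. RefSeq starts need not be the starts used in the striatum, which were not measured here.

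**Figure D4:**
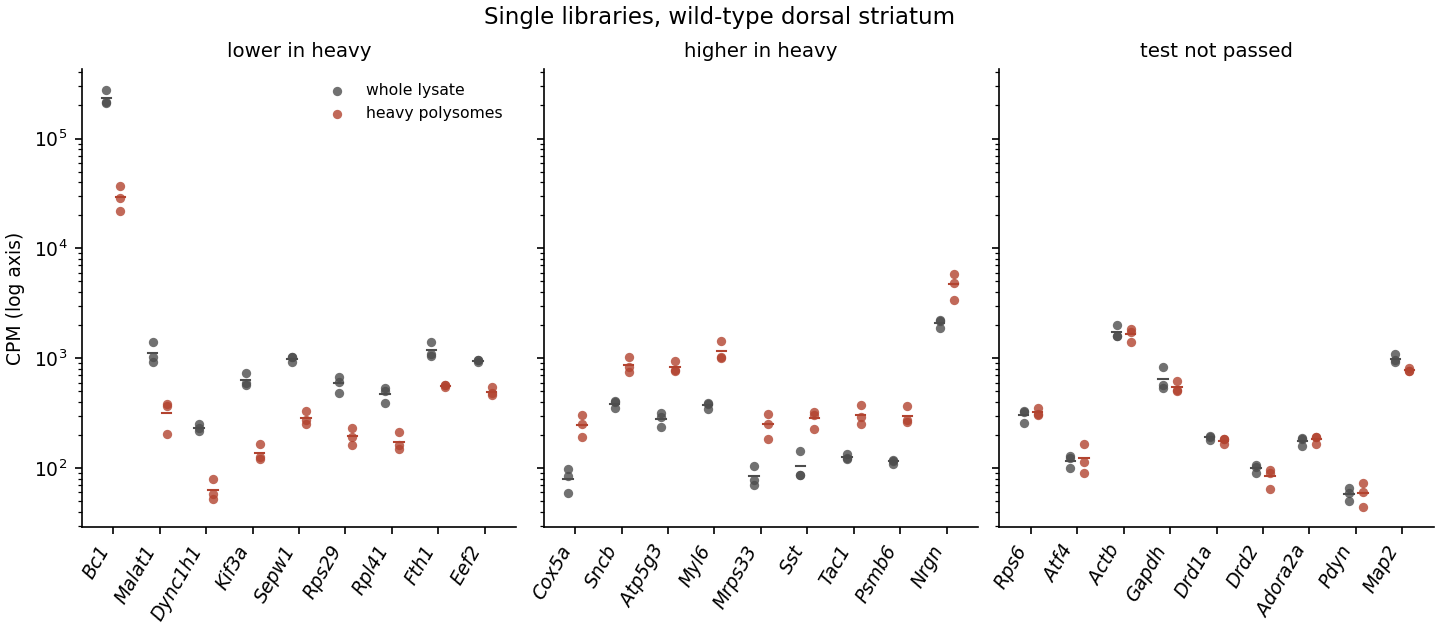
Levels in CPM (read counts scaled to library size, log axis) of selected genes in the single libraries of whole lysates (grey) and heavy polysomes (red), with lines at the mean of 3 libraries, for genes lower, higher and not called. In the first and second panel the fractions are separated for each gene, whereas in the third they lie close together.

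Well-known noncoding RNAs of neurons and of the nucleus were lower in heavy polysomes, *Bc1* and *Malat1* among them. Of 25 neuronal and nuclear long noncoding RNAs 2 were higher and 10 lower, with a median of -0.66 that varied between pairs (-0.74, -1.0 and -0.27). *Bc1*, a small RNA of dendrites that represses translation, was at 37337, 28989 and 21785 CPM in heavy polysomes and 209848, 216577 and 276186 CPM in lysates (log2 fold change -3.02, SE 0.21, adjusted p = 2.68e-11, edgeR), the most abundant RNA of the lysates. *Malat1*, which stays in nuclear speckles, was at 203, 382 and 366 CPM in heavy polysomes and 920, 1018 and 1402 CPM in lysates (log2 fold change -1.84, SE 0.16, adjusted p = 1.01e-09, edgeR), and *Neat1*, of nuclear paraspeckles, was also lower (-1.36). *Meg3*, an imprinted noncoding RNA, was at 649, 969 and 1357 CPM in heavy polysomes and 1345, 1895 and 1777 CPM in lysates (log2 fold change -0.80, SE 0.15, adjusted p = 0.000130, edgeR), which was less far from its lysates than *Malat1* was. One of the higher members, *6330403K07Rik*, is a protein-coding gene of 121 residues in RefSeq and was at 926, 596 and 744 CPM in heavy polysomes and 352, 309 and 313 CPM in lysates (log2 fold change 1.20, SE 0.15, adjusted p = 3.01e-07, edgeR). Host genes of small nucleolar RNAs, whose spliced RNA has no known coding role, had 0 of 19 higher, 5 lower and a median of -0.90. Among them *Snhg6* was at 0.0874, 0.981 and 2.83 CPM in heavy polysomes and 9.07, 16.0 and 13.7 CPM in lysates (log2 fold change -3.09, SE 0.47, adjusted p = 8.60e-06, edgeR) and *Gas5* at 37.4, 33.3 and 43.4 CPM in heavy polysomes and 135, 110 and 90.7 CPM in lysates (log2 fold change -1.53, SE 0.18, adjusted p = 2.61e-07, edgeR). Both were low in every heavy library. Over all 739 genes that RefSeq classes as long noncoding, 13 were higher (1.76%) and 41 lower (5.55%), both below the shares over all genes tested, with a median of -0.24.

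Lists of long proteins of the nucleus and the cytoskeleton were also low. Histone methyltransferases and chromatin remodellers, with a median of 2283 residues, had 0 of 27 higher and 20 lower (median -1.0). *Chd8*, a remodelling ATPase, was at 24.8, 22.8 and 25.2 CPM in heavy polysomes and 72.8, 72.4 and 72.2 CPM in lysates (log2 fold change -1.58, SE 0.19, adjusted p = 2.61e-07, edgeR), and the acetyltransferase *Crebbp* (-1.52) and *Ep400* (-1.52) had like values. Kinesin, dynein and myosin motors, which move cargo along microtubules and actin, had 4 of 35 higher and 22 lower (median -0.67). *Dync1h1*, the dynein heavy chain of 4644 residues, was at 57.6, 52.2 and 80.1 CPM in heavy polysomes and 216, 234 and 252 CPM in lysates (log2 fold change -1.90, SE 0.16, adjusted p = 1.15e-09, edgeR). *Kif3a*, a kinesin of 701 residues, was lower still at 165, 127 and 122 CPM in heavy polysomes and 568, 599 and 731 CPM in lysates (log2 fold change -2.21, SE 0.16, adjusted p = 4.71e-11, edgeR). The light chain *Myl6*, of 151 residues, was at 1435, 1004 and 1037 CPM in heavy polysomes and 387, 388 and 345 CPM in lysates (log2 fold change 1.62, SE 0.15, adjusted p = 4.25e-09, edgeR), on the other side of the lysates. Spectrins, ankyrins and microtubule proteins had 4 of 30 higher and 17 lower (median -0.49), with *Map1b* (-1.49) and *Map1a* (-1.43) among the lower ones and the small tubulin-binding protein *Stmn1* among the higher ones, at 2075, 1783 and 1628 CPM in heavy polysomes and 652, 713 and 613 CPM in lysates (log2 fold change 1.47, SE 0.14, adjusted p = 1.30e-08, edgeR). Zinc finger proteins of the Zfp family, which bind DNA, were near the middle, with a median of -0.17. Of these 336 genes 9 were higher (2.68%) and 29 lower (8.63%), both below the shares over all genes tested (12.9% and 12.1%).

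Genes of the synapse were split in the same manner. Postsynaptic scaffolds and dendritic mRNAs had 2 of 29 higher and 12 lower (median -0.34). *Camk2a*, the kinase of the postsynaptic density whose mRNA is found in dendrites, was at 756, 1000 and 741 CPM in heavy polysomes and 1536, 1516 and 1665 CPM in lysates (log2 fold change -0.93, SE 0.15, adjusted p = 1.44e-05, edgeR). *Arc*, an activity-induced dendritic mRNA, was at 47.0, 107 and 94.1 CPM in heavy polysomes and 112, 158 and 188 CPM in lysates (log2 fold change -0.92, SE 0.17, adjusted p = 7.74e-05, edgeR), and *Shank3* was lower as well (-0.73). *Map2* (log2 fold change -0.34, SE 0.14, adjusted p = 0.0745, edgeR) and *Dlg4* (log2 fold change 0.24, SE 0.15, adjusted p = 0.255, edgeR) did not pass the test. Glutamate receptor subunits had 0 of 24 higher and 5 lower (median -0.21), among them *Grin1* (-0.99) and *Gria2* (-0.54), and GABA receptor subunits had 1 of 14 higher, *Gabra4* (0.48), and 0 lower (median -0.12). With the trend on protein length removed, 5 glutamate receptor subunits were higher and 1 lower (median 0.25), and of the postsynaptic genes 8 were higher and 5 lower (median 0.04). Of 64 potassium channels 2 were higher (3.12%) and 5 lower (7.81%), both below the shares over all genes tested (12.9% and 12.1%). Of 30 sodium, calcium and HCN channels 2 were higher and 9 lower, with *Cacna1e* at -1.26 and the short accessory subunit *Scn2b* at 0.41. Synaptic vesicle and exocytosis genes had 13 of 35 higher and 11 lower (median 0.03). *Sncb*, which encodes beta-synuclein, was at 1036, 833 and 750 CPM in heavy polysomes and 397, 409 and 349 CPM in lysates (log2 fold change 1.17, SE 0.14, adjusted p = 3.61e-07, edgeR), and *Vamp1*, a SNARE protein of vesicles, was higher too (0.82), whereas *Sv2c* was lower (-2.01).

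Genes of MSNs stood on both sides, with peptide precursors among the higher ones. Of 37 signalling and identity genes of MSNs 9 were higher and 5 lower, with a median of -0.07. The dopamine receptors *Drd1a* (log2 fold change -0.10, SE 0.15, adjusted p = 0.703, edgeR) and *Drd2* (log2 fold change -0.26, SE 0.16, adjusted p = 0.257, edgeR) and the adenosine receptor *Adora2a* (log2 fold change 0.06, SE 0.15, adjusted p = 0.834, edgeR) did not pass the test, and the libraries of both fractions overlapped. Precursors of striatal peptides were measured at 1049, 981 and 785 CPM in heavy polysomes and 538, 521 and 496 CPM in lysates for *Penk*, the enkephalin precursor (log2 fold change 0.85, SE 0.14, adjusted p = 3.18e-05, edgeR), and 372, 252 and 292 CPM in heavy polysomes and 135, 123 and 122 CPM in lysates for *Tac1*, the substance P precursor (log2 fold change 1.25, SE 0.15, adjusted p = 2.86e-07, edgeR). Both were higher without overlap. *Pdyn*, the dynorphin precursor of direct-pathway neurons, did not pass the test (log2 fold change 0.01, SE 0.18, adjusted p = 0.978, edgeR). *Ppp1r1b* was higher (log2 fold change 0.79, SE 0.14, adjusted p = 8.02e-05, edgeR), and the phosphodiesterase *Pde10a* (log2 fold change -0.73, SE 0.16, adjusted p = 0.000728, edgeR) and *Rgs9* (log2 fold change -0.72, SE 0.15, adjusted p = 0.000601, edgeR), which shortens G protein signals, were lower.

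Over all neuropeptide precursors and granins 7 of 20 were higher and 3 lower (median 0.04). The peptides of striatal interneurons were among those with the largest changes: *Sst* was at 305, 226 and 326 CPM in heavy polysomes and 86.6, 142 and 85.9 CPM in lysates (log2 fold change 1.47, SE 0.18, adjusted p = 5.16e-07, edgeR), *Npy* at 165, 137 and 155 CPM in heavy polysomes and 57.0, 58.6 and 54.8 CPM in lysates (log2 fold change 1.42, SE 0.16, adjusted p = 1.65e-07, edgeR) and *Cck* at 181, 187 and 200 CPM in heavy polysomes and 68.6, 95.3 and 67.3 CPM in lysates (log2 fold change 1.31, SE 0.16, adjusted p = 4.44e-07, edgeR). The longer granin *Vgf*, of 617 residues, was lower (log2 fold change -1.30, SE 0.18, adjusted p = 2.25e-06, edgeR). In the list of interneuron genes, which shares some of these peptides, 6 of 16 were higher and 5 lower, and the lower ones included *Chat*, the enzyme that makes acetylcholine (log2 fold change -1.57, SE 0.39, adjusted p = 0.00273, edgeR), and *Nos1*, nitric oxide synthase (log2 fold change -1.68, SE 0.45, adjusted p = 0.00566, edgeR). *Chat*, at 5.94, 1.96 and 4.01 CPM in heavy polysomes and 19.4, 12.7 and 5.74 CPM in lysates, was far less abundant than the peptides, and its fractions overlapped. Immediate early genes, induced by activity, had 2 of 22 higher (9.09%) and 4 lower (18.2%), near the shares over all genes tested (12.9% and 12.1%). Their median was -0.22, with *Npas4* at -0.96 and *Jun* at -0.81.

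Genes with known control of translation differed from each other. Of 9 iron genes, which include mRNAs with an iron-responsive element, 0 were higher and 6 lower (median -0.89). *Fth1*, the ferritin heavy chain of 182 residues, was at 572, 546 and 570 CPM in heavy polysomes and 1045, 1407 and 1104 CPM in lysates (log2 fold change -1.06, SE 0.15, adjusted p = 1.93e-06, edgeR), and *Ftl1*, the light chain of 183 residues, was at 208, 175 and 178 CPM in heavy polysomes and 417, 474 and 365 CPM in lysates (log2 fold change -1.16, SE 0.15, adjusted p = 7.35e-07, edgeR). Both stood apart from their length class, which had a median of 0.64. Upstream-ORF mRNAs of the stress response had 1 of 13 higher, *Ifrd1* (0.68), and 1 lower, *Eprs* (-0.90). *Atf4*, the best known of them, was at 113, 89.9 and 165 CPM in heavy polysomes and 99.3, 123 and 130 CPM in lysates (log2 fold change 0.03, SE 0.17, adjusted p = 0.912, edgeR), with overlap. Polyamine enzymes had 4 of 9 higher and 0 lower (median 0.40), for example spermidine synthase *Srm* (1.0) and *Odc1* (0.55). Selenoproteins had 5 of 17 higher, among them *Vimp* (1.38) and *Selk* (1.08), and 2 lower including *Sepw1*. The metallothioneins *Mt1*, *Mt2* and *Mt3*, small metal-binding proteins of 61, 61 and 68 residues, were not called (log2 fold changes of -0.46, -0.34 and -0.28). Actin regulators had 4 of 9 higher, led by profilin *Pfn1* (1.36) and cofilin *Cfl1*, at 2281, 2058 and 1879 CPM in heavy polysomes and 931, 840 and 831 CPM in lysates (log2 fold change 1.25, SE 0.14, adjusted p = 1.19e-07, edgeR), and 2 lower, *Tmsb10* and *Tmsb4x*, while *Actb* did not pass (log2 fold change -0.05, SE 0.15, adjusted p = 0.841, edgeR).

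Measured against genes of like length, some lists moved and others kept their place. For each gene the median of its length class was subtracted, with the broad classes and not the finer ones. The class of at most 100 residues joined finer classes with medians of -1.25, -0.17 and 0.19. For lists with very short proteins, such as metallothioneins, the match in length was therefore loose. The median of the rest was 0.48 for ATP synthase subunits, 0.41 for mitochondrial ribosomal proteins and 0.40 for upstream-ORF mRNAs. Next came complexes III and IV and polyamine enzymes, both at 0.37, proteasome subunits at 0.34 and glutamate receptor subunits at 0.29. This median was -0.80 for iron genes, -0.59 for glycolytic enzymes, and -0.50 and -0.35 for ribosomal proteins of the small and large subunit. Metallothioneins were at -0.38 and actin regulators at -0.35. Motors, elongation factors with other TOP mRNAs, and immediate early genes were each at -0.34. Chromatin regulators, at -1.0 before, were at -0.18, and spectrins, ankyrins and microtubule proteins were at 0.01. When the trend on protein length was removed within the model, 2236 genes were called, 1560 of them shared with the 3909, and the medians of glutamate receptors (0.25) and of sodium, calcium and HCN channels (0.13) changed sign.

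Lists of cell type markers had medians between -0.35 and 0.38, and each held genes of both signs among the called ones except for those of mural and of ependymal cells. Oligodendrocyte genes summed to 4705 to 5003 CPM in heavy polysomes and 3615 to 4272 in lysates, with 6 of 22 higher, such as *Mbp* (0.86), a myelin protein whose mRNA is carried into processes, and 5 lower, such as *Myrf* (-1.11). *Mobp* did not pass (0.16). Astrocyte genes summed to 4394 to 4999 against 4896 to 5293 CPM, with 5 of 24 higher, such as *Cst3* (1.26) and *Gfap* (0.60), and 6 lower, such as *Aldh1l1* (-1.23). Microglia genes summed to 322 to 378 against 260 to 276 CPM, with 6 of 22 higher, including the complement genes *C1qc* (1.16) and *C1qa* (1.05), and 1 lower, *Csf1r* (-0.80). Endothelial genes had 2 of 22 higher (9.09%), *Itm2a* and *Bsg*, and 1 lower (4.55%), *Slc2a1*, both below the shares over all genes tested (12.9% and 12.1%). Cortical excitatory neuron genes, a check on the dissection, had 4 of 12 higher and 3 lower, and their sum (4472 to 7011 against 2749 to 3243 CPM) was mostly *Nrgn*, which MSNs express as well. Mural cell and fibroblast genes had 0 of 12 higher and 1 lower (31.3 to 58.3 against 34.1 to 45.7 CPM), and ependymal and choroid plexus genes had 0 of 11 in either direction (104 to 111 against 114 to 123 CPM). By the study's methods the fractions of a replicate came from the same lysate, so these sums compare RNA pools of the same cells. They do not count the cells of a type, and what cell types have to do with the classes above was not tested.

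Among called genes with at least 50 reads on average and one direction in all pairs, *9230009I02Rik*, a long noncoding RNA, was highest over its lysates with 7.60, 3.47 and 6.57 CPM in heavy polysomes and 1.51, 0.264 and 1.21 CPM in lysates (log2 fold change 2.55, SE 0.61, adjusted p = 0.00193, edgeR). *Cort*, which encodes the interneuron peptide cortistatin, was at 8.13, 5.17 and 5.63 CPM in heavy polysomes and 0.834, 0.989 and 2.18 CPM in lysates (log2 fold change 2.30, SE 0.59, adjusted p = 0.00336, edgeR). *Pdlim2* (2.10), *Exosc5* (1.97), a subunit of the RNA exosome, and *Pttg1* (1.81), which encodes securin, were further members. Of the 12 highest genes, the proteins of all those that encode one had 109 to 349 residues. The mean of 50 reads was taken over both fractions, so that a gene could pass through 1 of them. The lysates of *9230009I02Rik* held 29, 4 and 15 reads and those of *Cort* 16, 15 and 27. At the other end *Rpph1*, the RNA of ribonuclease P, had 0, 0 and 0.512 CPM in heavy polysomes and 3.33, 8.11 and 10.5 CPM in lysates (log2 fold change -5.04, SE 0.79, adjusted p = 1.28e-05, edgeR). Its heavy libraries held 0, 0 and 13 reads. *Lrrc17* was at 0.262, 2.88 and 1.46 CPM in heavy polysomes and 20.6, 9.83 and 13.9 CPM in lysates (log2 fold change -3.13, SE 0.47, adjusted p = 6.61e-06, edgeR), and *Soga1* at 3.50, 5.75 and 5.43 CPM in heavy polysomes and 26.5, 27.9 and 38.7 CPM in lysates (log2 fold change -2.67, SE 0.29, adjusted p = 5.65e-08, edgeR). *Xrn1*, a ribonuclease that degrades decapped mRNA, was at 0.699, 1.63 and 1.65 CPM in heavy polysomes and 7.29, 7.06 and 8.01 CPM in lysates (log2 fold change -2.42, SE 0.53, adjusted p = 0.000744, edgeR). Each of these had its 3 lysates above its 3 heavy libraries. In the Acb *9230009I02Rik* (log2 fold change -0.24, adjusted p = 0.865, edgeR) and *Cort* (0.33, adjusted p = 0.845, edgeR) did not pass. *Rpph1* was lower there but did not pass either (log2 fold change -1.65, adjusted p = 0.0595, edgeR). *Pdlim2*, *Exosc5*, *Pttg1*, *Lrrc17*, *Soga1* and *Xrn1* passed in the Acb in the same direction. In the knockin DS only *9230009I02Rik* of these genes did not pass (adjusted p = 0.0747, edgeR).

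The same comparison was made in the wild-type Acb and in the knockin DS, with libraries that the wild-type DS does not share. In the Acb 13.6% of the 16043 genes tested were higher and 13.8% lower, and in the knockin DS 13% and 14.7% of 15912 genes. Of the 2011 genes that were higher in the wild-type DS and tested in the Acb, 1976 were above 0 there (98.3%) and 1518 were called higher (75.5%). Of the 1896 lower genes 1869 were below 0 in the Acb (98.6%) and 1457 were called lower (76.8%). In the knockin DS these shares were 99.2% and 71.6% for the higher and 97.7% and 79.3% for the lower genes. The length classes were ordered alike above 100 residues, from 0.56 at up to 200 residues to -0.83 above 1600 in the Acb and from 0.63 to -0.93 in the knockin DS. The class of at most 100 residues had a median of 0.04 in the wild-type DS, -0.02 in the Acb and 0.52 in the knockin DS, and it was also the class that moved most between replicates.

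Differences in polysome loading between regions or genotypes were tested as an interaction. Between the DS and the Acb of wild-type mice 0 of 16684 genes passed with edgeR (0% in either direction), 686 had an unadjusted p under 0.05 (4.11%), and DESeq2 called 1 gene. Between wild-type and knockin DS 0 of 16544 genes passed with edgeR, 724 had an unadjusted p under 0.05 (4.38%), and DESeq2 called 0. Both of these DESeq2 fits left out the lysate block that the edgeR fits kept. With the legacy settings of edgeR 7 genes were called between regions and 6 between genotypes. With the default settings no difference of a single gene was called. The paper, using the Xtail package, reports genes with altered translational efficiency between genotypes in the DS. It also reports genes that differed between genotypes in DS heavy polysomes alone, among them *Tmsb10*, *Mt1*, *Mt2*, *Atp5e* and *Timm8b*. The count of 0 here does not show that no gene differed. Ribosomal proteins had medians of 0.08 and -0.02 in the wild-type DS and -0.52 for both subunits in the Acb, and the Acb pairs ran from -0.18 to -0.71 for the large and from -0.30 to -0.89 for the small subunit, a range that overlapped with that of the DS pairs. *Rpl41* had log2 fold changes of -1.45 in the wild-type DS, -2.39 in the Acb and -1.35 in the knockin DS. For *Tmsb10* these were -1.25, -1.5 and -0.38, and for *Bc1* they were -3.02, -3.75 and -3.04. The metallothioneins, none of which was called here, had a list median of -0.34 in the wild-type DS, -0.71 in the Acb and 0.60 in the knockin DS. Their pair medians ran from -0.90 to 0.28 in the wild-type DS, a range that overlapped with those of the other samples. These were -1.36 to 0.01 in the Acb and 0.27 to 0.87 in the knockin DS.

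**Figure D5:**
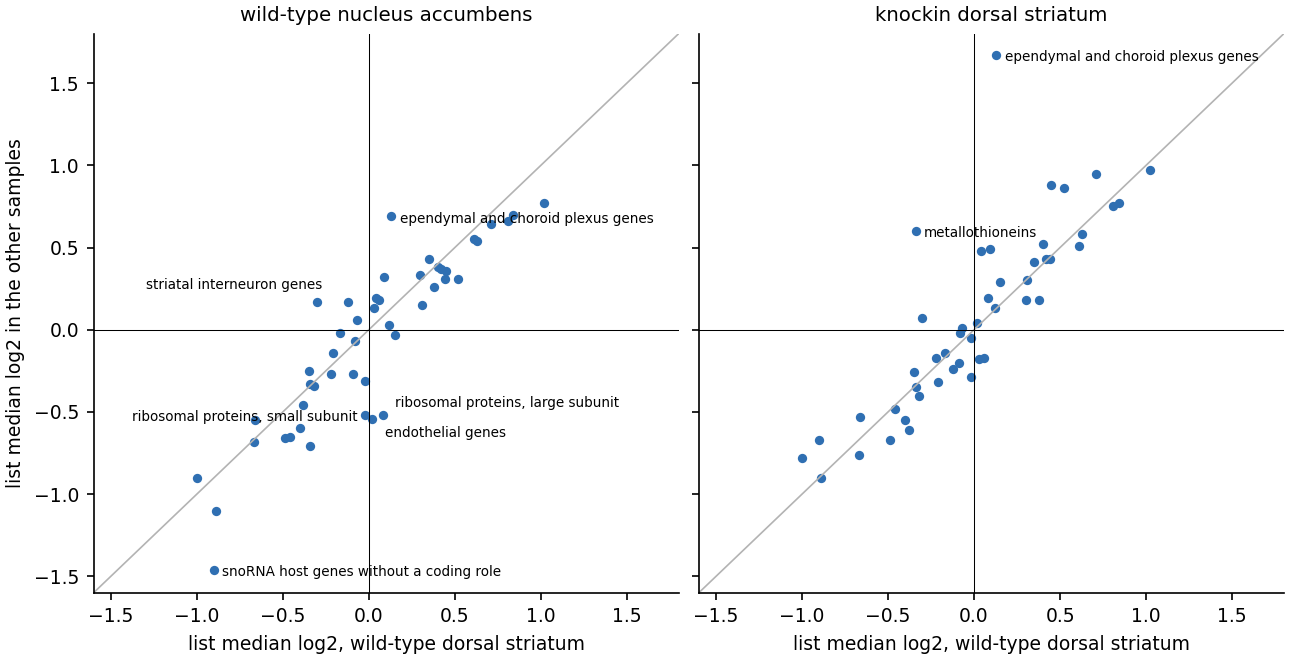
Median log2 fold change of each gene list in the wild-type DS (horizontal axis) against the same list in the wild-type Acb (left) and in the knockin DS (right), with a grey line of equality and labels where the medians differ by more than 0.45. Most lists lie near the line, for example mitochondrial ribosomal proteins at 0.81 against 0.66 and 0.75, and ribosomal proteins lie at -0.52 in the Acb.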

How the data were processed

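The authors sequenced poly-A selected, stranded libraries as single-end reads, aligned them with TopHat 2.0.13 and Bowtie 2.2.3 to mm10 and assigned them to UCSC gene models with HTSeq 0.6.1p1. The deposited values are raw read counts per gene, with no normalization. Reads with more than 3 mismatches had been discarded, and contaminated samples had been sequenced in several runs, which the counts pool. Poly-A selection limits what the levels of RNAs without a tail mean.

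From these counts, the quasi-likelihood test of edgeR 4.0.16 in R 4.3.3 was fitted across all genes with at least 15 reads, with TMM scaling, the lysate (replicate number) as a block and Benjamini-Hochberg adjustment. Pairing comes from the study's methods, in which the lysate is a part of what was fractionated. Deviations from the group means of same-numbered libraries had correlations of 0.0219, 0.0123 and 0.0206 over 11605 genes. Those of differently numbered libraries ran from -0.0302 to 0.00474. All of these were small, so that the pairing rests on the study's methods and hardly shows in the counts. The default settings of glmQLFit were preferred to the legacy ones after the counts of calls under both had been seen, because the legacy ones gave an infinite prior. The fits were tested on simulated data, in which 200 genes with at least 50 reads on average were given a log2 change of 1.5. Of these, 150 were found in the main comparison, 119 between regions and 125 between genotypes. Each time 9 other genes were called. Single-library levels are CPM. Protein lengths came from GENCODE M21 and biotypes and starts from RefSeq, in which 20374 and 23977 of the 24079 genes were matched by Entrez ID. No test was made over a list. Genes were named by rule: the 12 with the largest change in each direction among called genes with at least 50 reads and one direction in all pairs, the 3 called members of each list with the largest change in the direction of the list's median and the 1 with the largest change in the other direction, every member of the smallest lists, and a fixed set of genes. The members and lists were chosen with earlier results of these data known. Alternatives were DESeq2 1.42.0, other scalings, filters, no block, removal of the length trend and each replicate left out. For the interactions DESeq2 was fitted without the lysate block.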

Additional observations from a re-analysis of the deposited data

How the results depend on the processing

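Under other scalings, filters, tests and depths the count of 3909 genes ran from 3591 with DESeq2 to 4092 with the legacy settings of edgeR. It was 3975 without the replicate block, and 3793 of these genes were also called with the libraries paired. With the replicate block and a trend on protein length removed it was 2236. Leaving out 1 replicate gave 2139 to 3353 genes, the lowest without replicate 1 and 2451 without replicate 3, with fewer libraries in each case, and 33, 17 and 25 of the named genes lost their call without replicates 1, 2 and 3. Between regions the count of 0 became 7 with the legacy settings and 1 with DESeq2 fitted without the lysate block, and 0 to 1 with 1 replicate left out. Between genotypes it became 6 with the legacy settings and 0 to 1 with 1 replicate left out, and the cause was not tested.

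With the length trend removed, the medians changed sign for actin regulators (-0.18), glutamate receptors (0.25), postsynaptic scaffolds (0.04), sodium, calcium and HCN channels (0.13) and oligodendrocyte genes (-0.07), and the log2 fold changes for *Cacna1h* (0.04), *Scn2b* (-0.07), *Tpt1* (-0.05), *Map2* (0.46) and *Shank3* (0.04). The median of potassium channels was 0.02 without replicate 1, and -0.03 and -0.02 without replicates 2 and 3. Other scalings moved the median of all genes by at most 0.02, and the direction of no list or named gene changed with them.

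Depth limits the low genes, since 11605 of the 15614 genes had at least 50 reads on average.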

Other observations

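Genes in the first paragraph below were chosen after their values were seen. The gamma subunits of heterotrimeric G proteins, small membrane-anchored partners of the beta subunits, are nearly equal in length but were not on one side. *Gng13* (67 residues) was at 6.99, 2.88 and 5.59 CPM in heavy polysomes and 15.5, 25.4 and 11.7 CPM in lysates (log2 fold change -1.72, SE 0.35, adjusted p = 0.000395, edgeR). *Gng7* (69 residues), the partner of the striatal Golf alpha subunit, was at 615, 377 and 596 CPM against 814, 667 and 809 CPM (log2 fold change -0.55, SE 0.14, adjusted p = 0.00388, edgeR). The fractions of both genes did not overlap. *Gng10* and *Gng5* (both 68 residues) were lower too, with log2 fold changes of -1.04 and -0.93. *Gng11* (73 residues) was at 29.0, 16.9 and 30 CPM against 12.1, 8.18 and 9.22 CPM (log2 fold change 1.35, SE 0.26, adjusted p = 0.00023, edgeR), and *Gng2* (71 residues) and *Gng3* (75 residues) were also higher, at 0.54 and 0.45. Among these called members the lower ones had 67 to 69 residues and the higher ones 71 to 75. The 5 other measured members, *Gngt2*, *Gng8*, *Gng12*, *Gngt1* and *Gng4*, did not pass the test.

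Among the shortest proteins, *Gm20594* (37 residues) was at 23.8, 20.9 and 31.1 CPM in heavy polysomes and 109, 110 and 134 CPM in lysates, and *Ost4* (37 residues), a subunit of the oligosaccharyltransferase, was at 18.5, 11.8 and 19.8 against 43.4, 42.4 and 27.6 CPM. Among proteins of over 1600 residues, 6 genes were higher in heavy polysomes, and they were likewise named after their values were seen. They included the cardiac myosin heavy chains *Myh7*, at 25.6, 16.4 and 15.2 against 6.72, 10.1 and 10.2 CPM, and *Myh6*, at 9.09, 6.08 and 6.38 against 3.28, 2.57 and 1.05 CPM, which are near-identical copies of each other, and how reads were split between them was not tested. *Prune2* was at 99.6, 88.4 and 105 against 77.0, 58.8 and 75.8 CPM, and *Ehbp1l1*, *Myo5b* and *Trpm6* completed the 6. *Trpm6* had 0 reads in every lysate.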
